A study of Arabidopsis thaliana with 4 samples.

Results

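The genes described here are 8 Arabidopsis thaliana loci of nutrient signalling, taken by locus number: the LOB-domain genes LBD37 (AT5G67420), LBD38 (AT3G49940) and LBD39 (AT4G37540), and the BTB and TAZ domain genes BT1 (AT5G63160), BT2 (AT3G48360), BT3 (AT1G05690), BT4 (AT5G67480) and BT5 (AT4G37610). They are 8 of 27444 nuclear protein-coding genes. A gene was counted when a deposited peak touched its body or the 1 kb on either side. The loci were selected on their gene families and on the peaks of both lists, whose scores were already known, so the values below are a description and carry no test.

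Chromatin bound by ANAC060, a NAC-domain transcription factor linked to sugar and abscisic acid responses, was precipitated from 10-d-old whole seedlings in the Col-0 background. The precipitated plants carried ANAC060 fused to green fluorescent protein in the anac060 mutant, driven by the constitutive 35S promoter, so the fusion was not under its own promoter. An anti-GFP antibody was used, and wild-type Col-0 DNA taken without antibody was the input. One arm grew with 6% glucose and the other without glucose, and the protocol also names 6% sorbitol without saying which plants received it. How many transgenic lines were used is not stated in the labels. Each of the 4 groups had 1 library, so no value below has a replicate check. An anti-GFP precipitate of untagged plants is not part of the comparison.

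LBD37, LBD38 and LBD39 are closely related repressors of the class II branch of the LOB-domain family. They are induced by nitrate and are known to hold down nitrogen-responsive genes and the anthocyanin regulators PAP1 and PAP2. BT1 to BT5 encode scaffold proteins that can join CUL3 ubiquitin ligases and bind bromodomain proteins and calmodulin. BT1 and BT2 are known as negative regulators of nitrate uptake, and BT2 responds to sugar, nitrogen and light and acts downstream of the zinc-finger factor TAC1 in telomerase control.

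More of these loci carried a peak in the no-glucose list than in the glucose list. In the no-glucose list 6 of 8 had one, LBD37, LBD38, LBD39, BT2, BT4 and BT5, where 25.5% of all protein-coding genes did. In the glucose list 3 of 8 had one, LBD37, LBD38 and BT4, where 18.1% of all protein-coding genes did. The 3 glucose loci were all among the 6, so 3 of 8 were in both lists (13.9% of all genes) and 3 of 8 in the no-glucose list alone (11.6% of all genes). At a common minimum score of 100 in both lists, an alternative added for this count after seeing the data, 5 of 8 were in the no-glucose list alone (20.9% of all genes). BT1 and BT3 had no peak in either. Genes as long as these loci were called slightly more often than the average gene, in 27.2% of 11692 cases without glucose and 19.3% with it. Since the loci were chosen with the scores known, nothing is read from these shares.

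The score of a peak is the authors' own value, on a scale that the files do not name. Its range is like that of older MACS versions, which wrote a log-transformed p-value, and such a score grows with depth and peak width and is no measure of binding strength. The glucose list held 2859 peaks with scores from 30.02 to 3100, and the no-glucose list held 4155 peaks from 100.01 to 3100. The 2 lists start at different scores, so a pair of scores does not measure a change of binding, and a gene without a peak may have been below the list's minimum. Ranks are therefore given within each list, with rank 1 the highest score.

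**Figure D1:**
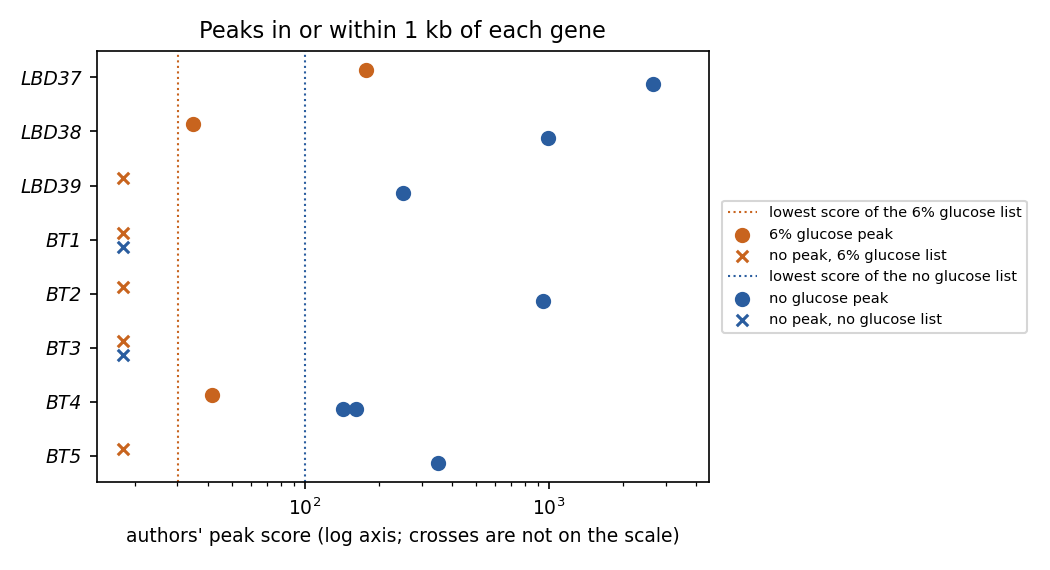
Authors' peak score on a log axis for each of the 8 genes, with 1 point per peak, orange for the glucose list and blue for the no-glucose list. Dotted lines mark the lowest score of each list (30.02 and 100.01), and crosses, drawn off the scale, mark a gene with no peak in that list. LBD37 has the highest score in both lists, and BT1 and BT3 have crosses only.

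LBD37 had the highest-ranking peak of the 8 genes in both lists. Without glucose its peak scored 2671 (rank 16 of 4155) and ran from 26900318 to 26913331 on chromosome 5 (TAIR10), a width of 13014 bp. It covered the whole gene and went 3548 bp beyond the lower-coordinate end and 6807 bp beyond the higher one. With glucose the peak at the gene scored 177 (rank 264 of 2859) and ran from 26905541 to 26908615. That narrower peak of 3075 bp covered 37.0% of the gene, at the higher-coordinate end.

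Where the no-glucose list had 1 long peak at LBD37, the glucose list had 4 separate ones. From low to high coordinate their scores were 189.47, 177.06, 92.92 and 60.68. Together they overlapped 73.8% of the long peak. The highest of the 4 lay 1203 bp from the gene and so just outside the 1 kb flank, and the second touched the gene. The long peak also held the lncRNA gene AT5G09915 and the protein-coding gene AT5G67430 in full and reached 16.7% of NPY3, so a peak at LBD37 is not assigned to LBD37 alone.

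LBD38 stood high in the no-glucose list and low in the glucose list. Without glucose its peak scored 988 (rank 75), ran from 18511565 to 18517589 on chromosome 3 and covered the whole gene. With glucose the peak scored 34.76 (rank 2484 of 2859), ran from 18511846 to 18514499 and covered 12.5% of the gene, at its lower-coordinate end. The glucose peak lay entirely inside the no-glucose one and made up 44.0% of its length. No other gene was touched by either peak, although AT3G49930 lay within 1 kb of both. A further glucose peak, with a score of 35.37 (rank 2434), lay 2827 bp from LBD38 on the lower-coordinate side. It did not overlap the no-glucose peak.

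LBD39 was found in the no-glucose list alone and had the lowest score of the LBD trio there. Its peak scored 252 (rank 1249), ran from 17640328 to 17644008 on chromosome 4 and covered 39.0% of the gene. The remaining 3083 bp lay beyond the higher-coordinate end and reached 33.0% of AT4G37550. In the glucose list the nearest peak was 19679 bp away, with a score of 32.38.

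Among the BT genes, BT2 had the highest score, and only in the no-glucose list. Its peak scored 942 (rank 82), and of its 7581 bp the whole gene took 39.2%. The peak began 41 bp before the lower-coordinate end of BT2 and continued 4568 bp past the other end, over the lncRNA gene AT3G07945 and the pseudogene AT3G48370. The protein-coding gene CEP3 was not touched but lay within 1 kb of the peak. In the glucose list the nearest peak was 38665 bp away, and no glucose peak lay within 20 kb. BT2 was the single one of the 8 genes with no glucose peak within that distance.

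BT5 and BT4 had lower scores. The BT5 peak was in the no-glucose list alone, scored 352 (rank 709), and ran from 17671849 to 17675387 on chromosome 4. It covered 27.0% of BT5 at the higher-coordinate end and all of the pseudogene AT4G37620. The nearest glucose peak to BT5 was 14315 bp away.

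BT4 had 2 neighbouring no-glucose peaks and 1 glucose peak. The first no-glucose peak scored 161 (rank 2418), ran from 26932432 to 26934114 on chromosome 5 and covered 32.7% of the gene. The second scored 143 (rank 2800) and touched only the flank, 811 bp from the gene. The glucose peak scored 41.50 (rank 2059), also touched only the flank, 850 bp from the gene, and lay inside that second peak. It covered 93.9% of AT5G67490 and 19.9% of VDAC2, a mitochondrial porin gene, so at BT4 the overlap between the lists was nearer to these neighbours than to BT4. This is the peak closest to the 1 kb limit from inside, and the LBD37 peak at 1203 bp is the closest from outside.

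BT1 and BT3 had no peak within the limit in either list. The peaks nearest to BT1 lay 7868 bp away without glucose (score 741) and 7980 bp away with it (162), on the lower-coordinate side. For BT3 they lay 3406 bp away (299) and 3380 bp away (53.27), on the higher-coordinate side. At both genes the 2 lists thus had their nearest peak at nearly the same place, outside the 1 kb flank.

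**Figure D2:**
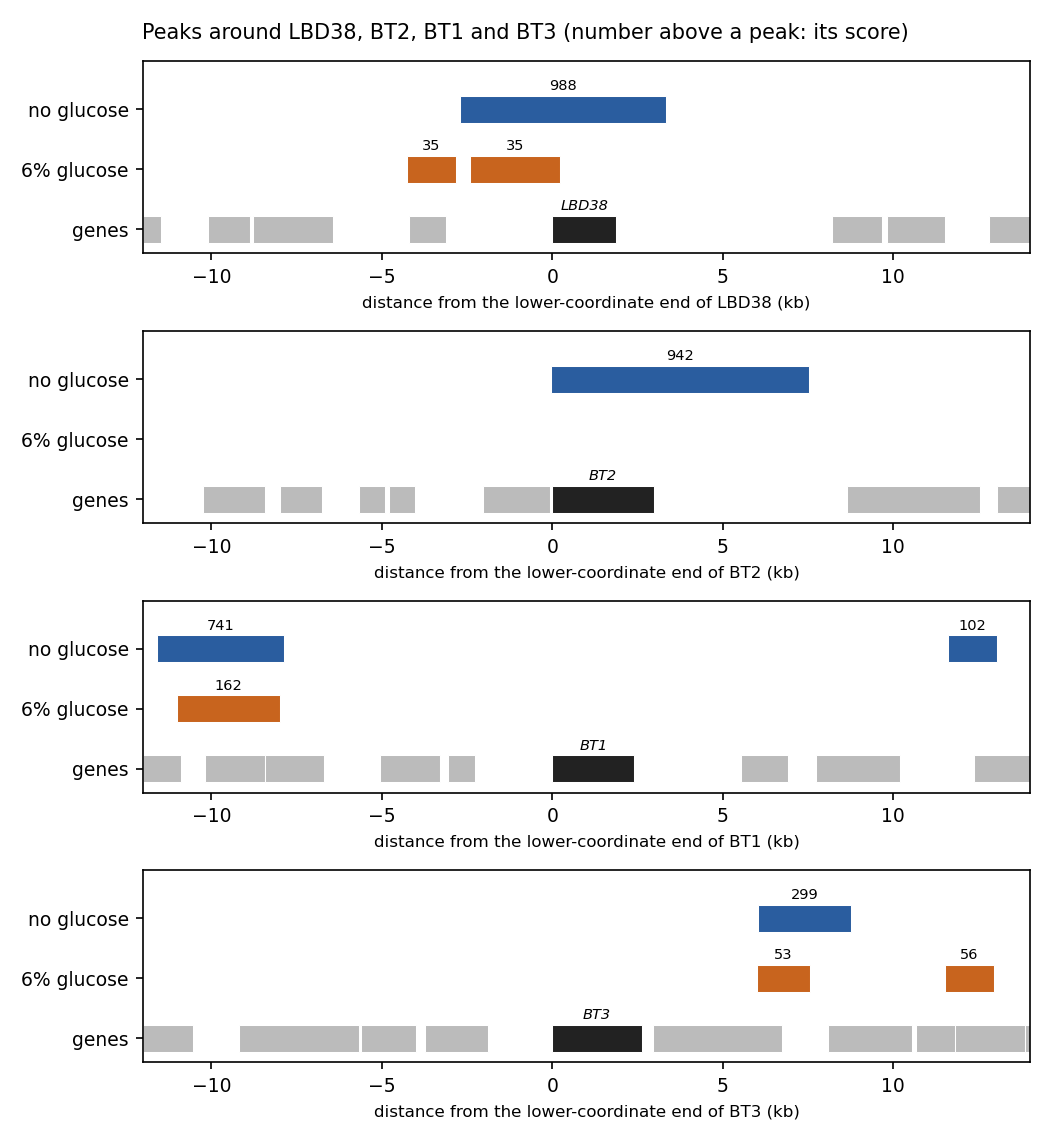
Peaks of the no-glucose list (blue) and the glucose list (orange) around LBD38, BT2, BT1 and BT3, with the named gene in black and other protein-coding genes in grey. The horizontal axis is the distance in kb from the lower-coordinate end of the named gene, and the number over a peak is its score. LBD38 lies under peaks of both lists, BT2 under a no-glucose peak alone (942), and BT1 and BT3 under none.

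Some of the loci lie in pairs, each of an LBD gene and a BT gene. LBD37 and BT4 are 24.0 kb apart on chromosome 5, and LBD39 and BT5 are 29.6 kb apart on chromosome 4, with 4 protein-coding genes wholly between in each case. BT2 and LBD38 are on the same chromosome but 604 kb apart. The members of a pair therefore share their surroundings and are not independent cases.

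The 2 pairs differed in how many peaks they held. Between LBD37 and BT4, and touching neither, were 3 no-glucose peaks, the highest at 674, and 3 glucose peaks, the highest at 304, with 2 of the glucose peaks wholly or partly under the long LBD37 peak. Between LBD39 and BT5 there was 1 no-glucose peak (156) and no glucose peak. No glucose peak touched any part of the stretch from LBD39 to BT5.

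**Figure D3:**
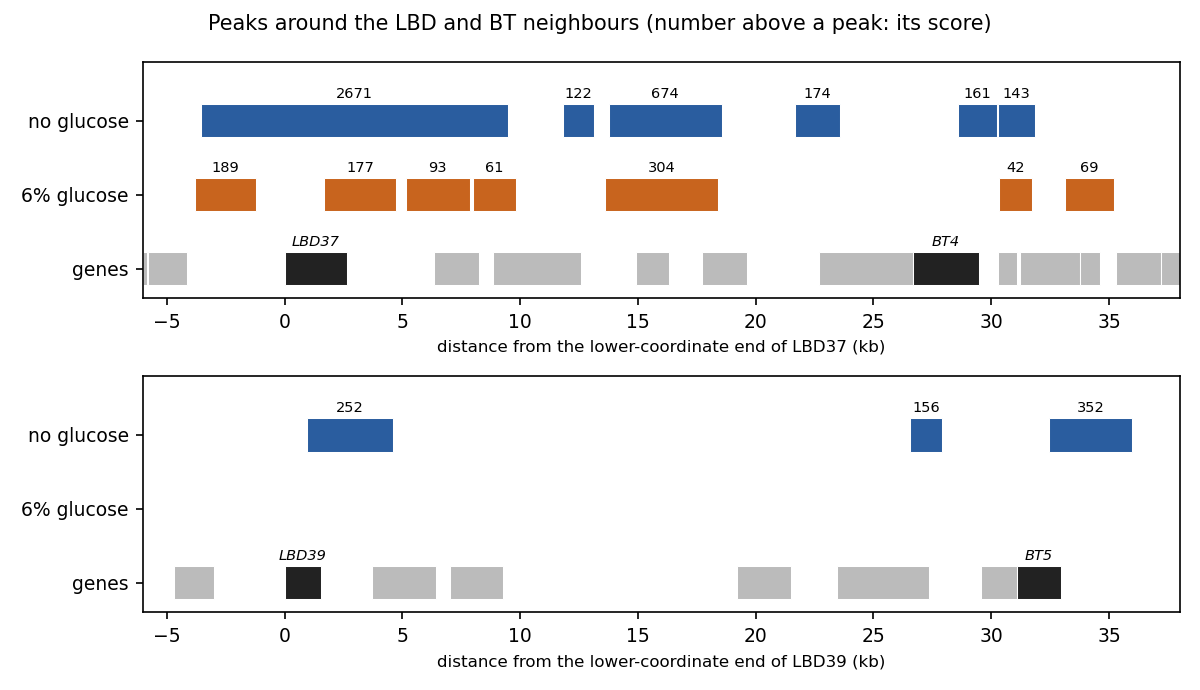
Peaks of the no-glucose list (blue) and the glucose list (orange) along the stretch from LBD37 to BT4 (top) and from LBD39 to BT5 (bottom), with the named genes in black and other protein-coding genes in grey. The horizontal axis is the distance in kb from the lower-coordinate end of the LBD gene, and the number over a peak is its score. The top stretch holds peaks of both lists, with the 13014 bp peak at LBD37, and the bottom stretch holds no glucose peak.

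The peaks of these genes reached outside annotated genes for much of their length. For LBD37, LBD38, LBD39, BT2 and BT5 the share of the no-glucose peak outside any annotated gene was 58.1%, 69.0%, 59.3%, 47.3% and 74.5%, in that order. At BT4 it was 30.8% and 7.88% for its 2 peaks. The same share was not worked out for the whole list. Of all no-glucose peak centres 38.4% lay in protein-coding genes, so these shares are not read as particular to the 8 loci. The no-glucose peaks of LBD37, LBD39, BT2, BT4 and BT5 extended further past the higher-coordinate end than the lower one, and that of LBD38 further past the lower one. The gene table used gives no strand, so these sides are not named as upstream or downstream.

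Several of these peaks were long. A width of 5 kb or more was reached by 94 of 4155 no-glucose peaks (2.26%), and those of LBD37, BT2 and LBD38 (13014, 7581 and 6025 bp) were among them. The peaks of LBD39 (3681 bp) and BT5 (3539 bp) were also wider than the list's median of 1784 bp, and those of BT4 (1683 and 1549 bp) were narrower. Across the no-glucose list score and width went together (Spearman's rho 0.72 over 4155 peaks of 1 precipitate, a description). LBD39 was wider than all of the 100 peaks placed next to it by score, whose median width was 2134 bp. BT5 and BT2 were each wider than 89 of their 100 neighbours by score, and LBD38 was wider than 71 of 100. LBD37 was wider than 60 of its 65 neighbours, and each of the BT4 peaks was wider than 53 of 100.

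**Figure D4:**
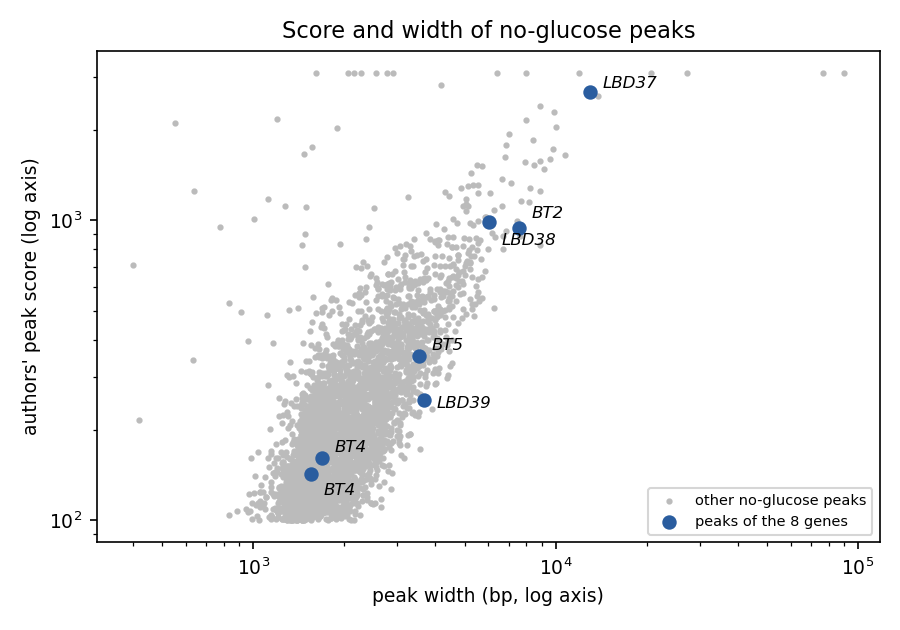
Width in bp against the authors' score of every no-glucose peak, both on log axes, with peaks of the 8 genes in blue and all others in grey. LBD37 (13014 bp), BT2 (7581 bp) and LBD38 (6025 bp) lie at the wide, high-scoring end. LBD39 lies at the wide edge for its score, BT5 on the wide side, and the 2 BT4 peaks in the middle of the cloud.

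Because the scales of the lists differ, each no-glucose peak was set beside the up to 100 peaks nearest to it in score order, 50 on either side, and the glucose peaks overlapping those were looked up. This comparison was chosen after the values were seen and has no test. At the score of BT2, 96 of 100 neighbouring peaks overlapped a glucose peak, and BT2 did not. At the score of LBD38, 96 of 100 did as well, with glucose scores from 36.01 to 1082 and a median of 243. The LBD38 glucose score of 34.76 was below all 96 of them. LBD38 (rank 75) and BT2 (rank 82) stand close together, so each is a neighbour of the other. Their sets share most peaks and are not separate comparisons.

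At the other loci the neighbours were as follows. All 65 neighbours of LBD37 overlapped a glucose peak, with a median score of 391, and 11 of the 65 had a lower score than the highest glucose peak under LBD37, 189.47. At the scores of BT5 and LBD39, 75 of 100 and 56 of 100 neighbours overlapped a glucose peak, so 25 and 44 lacked one as BT5 and LBD39 did. At the BT4 peak with an overlap, 34 of 100 neighbours also had one, and 14 of these 34 had a glucose score below 41.50. The lists do not say how deeply the libraries were sequenced, and a part of depth in these pairs of scores was not tested.

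**Figure D5:**
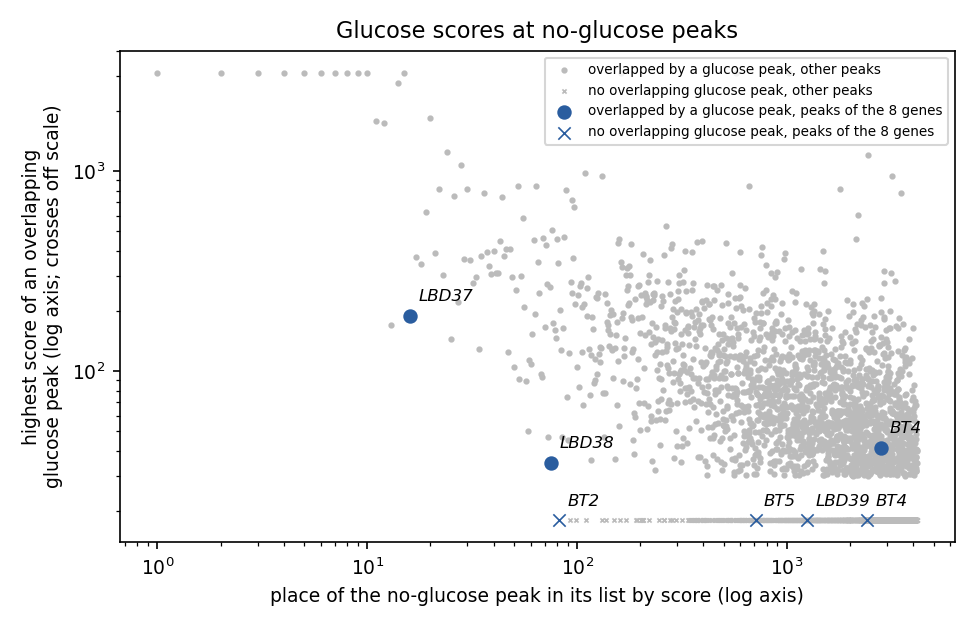
Place of each no-glucose peak in its list by score (1 is the highest) against the highest score of a glucose peak that overlaps it, both on log axes. Crosses, drawn off the vertical scale, are no-glucose peaks with no overlapping glucose peak, and peaks of the 8 genes are in blue. LBD38 lies at the lower edge of the peaks of like place, and BT2 is among the few crosses there.

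The rest of the LOB-domain family had peaks at shares near those of all genes. Of the 39 other family members in the gene table, 8 had a no-glucose peak (20.5%) and 7 a glucose peak (17.9%), beside 25.5% and 18.1% of all protein-coding genes. LBD37 and LBD38 had the highest no-glucose scores of all 42. The trio was chosen with these scores known, so nothing is read from that order. Among the class II genes outside the trio, LBD41, a gene known for its induction by low oxygen, had a peak in both lists (408 without glucose and 145 with it). LBD40 and LBD42 had none.

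Genes known to act with these loci were looked up next. Of 7 such genes 2 had a peak in each list (28.6%, beside 25.5% of all protein-coding genes without glucose and 18.1% with it). CUL3B, a cullin of the ubiquitin ligases that BT proteins join, was in both lists (172 without glucose and 47.37 with it), whereas CUL3A was in the glucose list alone (57.78). BET10, a bromodomain gene, was in the no-glucose list alone (120). TAC1, BET9, PAP1 and PAP2 had no peak in either list.

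Genes of nitrate sensing, uptake and assimilation with their regulators were counted in the same way. Of 36 genes, 21 had a no-glucose peak (58.3%, beside 25.5% of all protein-coding genes) and 11 a glucose peak (30.6%, beside 18.1%). The median score percentile, with genes lacking a peak set to 0, was 28.0 in the no-glucose list and 0 in the glucose list, and it was 0 in both for all protein-coding genes. These are counts without a test, from a list drawn up with results of these data known.

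The nitrate genes with the highest no-glucose scores were TGA1, AT1G25550, CBL1, NRT1.1, HRS1 and CPK32. TGA1, a bZIP factor of the nitrate response in roots, had 1934 without glucose and 145 with it. The calcium sensor gene CBL1 had 592 and 121. NRT1.1, the dual-affinity nitrate transporter and sensor, had 558 and no glucose peak within 1 kb, but its no-glucose peak overlapped a glucose peak of 69.13 outside that limit. HRS1, a factor that links nitrate and phosphate signalling in root growth, had 503 and the calcium-dependent kinase gene CPK32 had 427, and no glucose peak overlapped either of these peaks. AT1G25550, which the gene table does not name, had 777 and 233. Of the 36 nitrate genes 12 had a peak in the no-glucose list alone, beside 11.6% of all protein-coding genes. The lists start at different scores, so nothing is read from this count. Of these 12 genes, 2 (NRT1.1 and CPK10) had a highest no-glucose peak that overlapped a glucose peak beyond the 1 kb limit. That overlap was not counted for all genes.

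The nitrate genes were also counted by role, beside the 25.5% and 18.1% of all protein-coding genes without and with glucose. Of the 7 kinase and calcium sensor genes 6 had a no-glucose peak and 2 a glucose peak. Of the 12 assimilation genes 4 had a no-glucose peak and 6 a glucose peak. RFNR2, a root ferredoxin reductase gene, had the highest score of the assimilation genes (425 without glucose and 213 with it). Of the 5 transporter genes NRT1.1 and NRT2.5 (102) had a no-glucose peak and none had a glucose peak. NRT2.1 and NRT2.2, the high-affinity uptake genes, had no peak in either list. Both nitrate sensing genes, NLP7 (317) and NLP6 (107), had a no-glucose peak and neither a glucose peak. The remaining 10 genes, transcription regulators and 4 loci given without a gene name in the gene table, had 7 with a no-glucose peak and 3 with a glucose peak.

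The genes with the most similar pair of score percentiles were looked up for LBD37 and BT2. Likeness was the sum of the absolute differences of the percentiles in the 2 lists, over 2 peak lists, so it rests on 2 values per gene. Nearest to LBD37 were ANAC060 itself, the source of the transgene (171 with and 3100 without glucose, 1.03 points away), the potassium transporter gene KUP6 (174 and 977, 1.82 points) and EXL2 (193 and 1115, 2.36 points). The 3100 at ANAC060 is the highest score of the no-glucose list, and other peaks share it. The precipitated plants carried the ANAC060 transgene and the Col-0 input did not, and a part of copy number in this peak was not tested. Nearest to BT2 were AT5G25290 (910), AT2G33490 (971) and the trehalose phosphate synthase gene TPS8 (977), all without a glucose peak within 1 kb and within 0.120 points of BT2. The likeness is in the count per gene and not in the peak: the no-glucose peaks of these genes overlapped glucose peaks of 46.88, 160.52 and 174.08 beyond that limit, and the BT2 peak overlapped none. TPS8 and KUP6 were called from the same no-glucose peak (977). The glucose peak of 174 that overlapped it lay within 1 kb of KUP6 but not of TPS8.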

How the data were processed

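The submitters' processing notes name FastQC, BWA 0.7.15-r1140 and the TAIR10 build. Per the file headers, the peaks come from MACS run without its local background estimate. The header of the glucose list adds a p threshold of 0.001 and a run without a shift model. Neither the MACS version nor the threshold of the no-glucose list is stated. The score of each deposited peak is the authors' value for 1 precipitate set against 1 input, with no pooling named. Without a local background, copy-number differences and accessible chromatin can be called as peaks. Peak numbers in the no-glucose list run up to 7292 for 4155 peaks, so part of the numbered peaks is absent from it, and how they were left out is not stated. Depth is unknown.

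Peak starts were moved from the 0-based BED scale to 1-based. Genes came from the RefSeq table of TAIR10.1, in which all 8 loci and all listed genes were found. Its gene positions were checked on the peaks: 48.6% and 38.4% of glucose and no-glucose centres lay in protein-coding genes, against 66.5% to 67.2% when moved by 5 kb. No sequences were used here, so the planned promoter motifs and protein identities are not analysed. Distances are differences of coordinates, and the score percentile of a peak is the share of its list at or below its score. Overlap finding was tested on simulated data with planted peaks. Python 3.11.15, numpy 2.4.6, pandas 2.3.3, scipy 1.17.1 and matplotlib 3.10.9 were used.

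The loci, the gene lists and the rule for named genes were chosen with earlier results of these data known. The rule took the 8 loci, genes touched by their peaks, LBD40 to LBD42, up to 6 genes per list with the highest no-glucose scores and up to 3 of the glucose list, and the 3 genes most like LBD37 and BT2. The LOB-domain family counts, the comparison with peaks of like score, and NRT2.1, NRT2.2, NRT2.5, NLP6, NLP7, CPK10 and the genes with no peak were added after the values were seen. Alternatives were flanks of 500 bp and 2 kb, gene body only, peak centres, peaks above the median score, a common minimum score of 100 and equal numbers of peaks.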

Additional observations from a re-analysis of the deposited data

How the results depend on the processing

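The count of 6 genes with a no-glucose peak stayed at 4 to 6 under the 7 alternatives, with BT5 and LBD39 lost when only peak centres counted and BT4 lost among peaks above the median score. The share of all protein-coding genes ran from 14% among peaks above the median score to 31% with a 2 kb flank. The 3 genes in the no-glucose list alone became 5 at a common minimum score of 100 (20.9% of all genes). They were 3 or 4 under the other 6 alternatives, where 6.77% to 13.5% of all genes were in that list alone. The genes changed with the setting, and only BT2 was among them in every one. With peak centres they were LBD38, BT2 and BT4. The 7 alternatives were added for this count after seeing the data. The 3 genes with a glucose peak, which are also the 3 in both lists, fell to 2 with a 500 bp flank or the gene body only, where BT4 was lost. Of all protein-coding genes 16.3% and 14.3% then had a glucose peak, and 12.3% and 10.7% were in both lists. The glucose and both-list counts fell to 1, LBD37, with peak centres, above the median score and at a minimum score of 100. The share of all protein-coding genes with a glucose peak was then 13.9%, 9.91% and 4.93%, and in both lists 9.84%, 6.88% and 4.54%. At equal numbers of peaks and with a 2 kb flank both counts were 3. There 18.1% and 22.4% of all genes had a glucose peak, and 11.7% and 17.6% were in both lists. For the nitrate genes the glucose count of 11 went to 5 among peaks above the median score and to 4 at a minimum of 100, and it was 10 to 14 under the other 3 alternatives. Their no-glucose count of 21 ranged from 14 to 22. At a minimum of 100 only 674 glucose peaks remain, and all 4155 no-glucose peaks do.

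No paired analysis was possible because each group has 1 library and the results come from no test. Leaving out a replicate was not possible for the same reason. Read depth is unknown, so whether a gene without a peak was unbound or below the minimum cannot be told apart.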
